A study of Mus musculus with 8 samples.

Results

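Collagen genes and genes of hepatic stellate cells were followed in liver RNA from adult male mice that lacked the RNA-binding protein ZFP36L1 in hepatocytes and from control mice. Members were the rows of the deposited count table whose symbol is a numbered collagen chain, together with 14 named genes, namely Acta2, Des, Lrat, Reln, Pdgfra, Pdgfrb, Lox, Loxl1, Loxl2, Dcn, Lum, Bgn, Sparc and Vim. This gave 58 of the 25239 genes, 44 of them collagen chains. The 4 control libraries came from mice labelled fl/fl for Zfp36l1 (spelled Zf36l1 in their titles) and WT as genotype, and the 4 knockout libraries from Zfp36l1 fl/fl Alb-Cre+ mice. Both groups thus carried the loxP-flanked alleles, no treatment is named for either, and their age is given as adult. The Cre recombinase is under the promoter of the albumin gene, a hepatocyte gene, and deletion in other cells of the liver was not measured. The transgene is named for the knockout group alone, so its presence and the deletion cannot be told apart. The labels do not say that each library is a separate mouse, and the p-values therefore refer to the spread among these libraries.

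Collagens are secreted proteins in which 3 chains wind into a triple helix. Fibrillar collagens give tissue its tensile strength, type IV collagen forms the sheet of basement membranes, and other types decorate fibrils or span the cell membrane. In the liver, stellate cells lie between the sinusoidal endothelium and the hepatocytes, store retinyl esters when quiescent, and are known as the main source of scar collagen when they become myofibroblasts. ZFP36L1 belongs to a family of zinc finger proteins that bind AU-rich elements in 3′ untranslated regions (UTRs) and promote decay of the mRNA.

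Of the 58 members, 49 passed the filter on low counts, and 1 of these, the fibrillar chain gene Col5a3, changed between the groups, where it rose in the knockout. Genes were called at an adjusted p under 0.05, with p-values from the quasi-likelihood test of edgeR adjusted by Benjamini-Hochberg over the 14861 tested genes. By the same rule 5.39% of all tested genes were called, 3.51% higher and 1.88% lower. A fold change is given as the log2 of knockout relative to control, followed by its standard error (SE). Levels are CPM, the counts of a gene relative to the TMM-scaled library total, and are summarised as the mean ± SD of n = 4 libraries. The targeted gene Zfp36l1 fell from 259 ± 47.9 to 65.1 ± 8.97 CPM (log2 fold change −1.99, adjusted p = 0.000309 by edgeR), and no control library overlapped a knockout library. Total counts ran from 104842873 to 132017092 over control libraries and from 120200618 to 140582588 over knockout libraries, and at this depth 3 counts equal 0.0215 to 0.0277 CPM. In bulk liver RNA, fewer cells of a type and less RNA per cell cannot be told apart.

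The start region of Col5a3 is shown because that gene carried the 1 change, and those of Col4a1 and Col4a2 because the pair is divergently transcribed and both were highest in libraries 4 of each group. That order is not particular to the pair, as Col6a6 and Col25a1 were also highest in libraries 4 of each group. Each start region is 250 bases before and 50 bases after the annotated start from RefSeq (GRCm38.p6, the assembly of mm10), written 5′ to 3′ on the gene's own strand. RefSeq start regions were matched for 43 members. Capitals mark 3 promoter motifs on either strand, the TATA box spelled TATAAA, the CCAAT box spelled as its name, and the GC box spelled GGGCGG.
Col5a3, chr9:20815018-20815317, minus strand: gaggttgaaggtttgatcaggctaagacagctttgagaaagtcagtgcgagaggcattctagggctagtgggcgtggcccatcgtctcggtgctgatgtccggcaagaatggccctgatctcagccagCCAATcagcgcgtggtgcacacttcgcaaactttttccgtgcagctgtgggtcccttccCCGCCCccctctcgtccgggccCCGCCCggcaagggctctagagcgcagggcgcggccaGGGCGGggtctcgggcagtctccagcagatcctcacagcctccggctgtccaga
Col4a1, chr8:11312777-11313076, minus strand: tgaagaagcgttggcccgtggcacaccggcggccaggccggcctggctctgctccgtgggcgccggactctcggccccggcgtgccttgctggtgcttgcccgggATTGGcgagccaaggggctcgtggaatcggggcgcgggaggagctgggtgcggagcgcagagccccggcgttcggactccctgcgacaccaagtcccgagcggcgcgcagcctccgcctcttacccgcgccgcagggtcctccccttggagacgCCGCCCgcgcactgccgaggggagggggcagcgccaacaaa
Col4a2, chr8:11312555-11312854, plus strand: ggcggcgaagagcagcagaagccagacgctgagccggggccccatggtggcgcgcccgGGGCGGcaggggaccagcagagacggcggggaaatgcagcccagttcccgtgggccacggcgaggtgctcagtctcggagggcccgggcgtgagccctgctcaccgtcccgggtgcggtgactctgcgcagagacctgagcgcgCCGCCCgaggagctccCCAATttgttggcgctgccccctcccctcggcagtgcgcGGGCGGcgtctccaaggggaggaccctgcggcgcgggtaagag
The last 2 windows share 78 bases, chr8:11312777-11312854, read on opposite strands. The annotated starts of Col4a1 and Col4a2 lie 21 bases apart, and the 2 transcripts overlap at their first bases. The Col5a3 window holds the CCAAT letters 1 time, GGGCGG 3 times and TATAAA 0 times. Among all 32851 windows of this length in the table, GGGCGG occurs in 35.66%, CCAAT in 37.41% and TATAAA in 13.62%. Among the 46 windows of members they occur in 58.7%, 32.61% and 13.04% in that order, and such matches of letters describe sequence only.

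Col5a3 (chromosome 9, 20770050 to 20815067, minus strand, mm10) encodes the alpha3 chain of type V collagen, a minor fibrillar collagen that joins type I fibrils. Its level in control libraries 1 to 4 was 154, 106, 102 and 139.9 CPM. Knockout libraries 1 to 4 had 184, 238, 198 and 198 CPM. All knockout libraries were above all control libraries, and knockout library 2 was the highest. The means were 125 ± 25.6 and 205 ± 23.0 CPM, with a log2 fold change of 0.71 (SE 0.14, 95% interval 0.39 to 1.03, adjusted p = 0.0253 by edgeR, and 0.0388 once the replicate number was a block). The increase was 0.57 to 0.82 under all 16 alternative settings. The call was lost in 4 of the 8 fits that each left out a library. Leaving out control replicate 2 gave adjusted p = 0.0589, and leaving out knockout replicate 1, 2 or 3 gave 0.0503, 0.0584 and 0.0655.

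The other chains of type V collagen gave smaller values. Col5a1, whose chain pairs with that of Col5a2 in the usual heterotrimer, had 17.2 ± 2.76 and 18.6 ± 3.07 CPM (0.12, SE 0.14, adjusted p = 0.675). Col5a2 had 5.51 ± 1.06 and 7.09 ± 1.35 CPM (0.36, SE 0.17, adjusted p = 0.256). Per kilobase of gene length, Col5a3 stood at 20.5 ± 4.19 in control libraries, against 2.04 ± 0.329 for Col5a1 and 0.834 ± 0.160 for Col5a2. Among the 3 type V chain genes Col5a3 was thus the most abundant in every library of both groups.

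**Figure D1:**
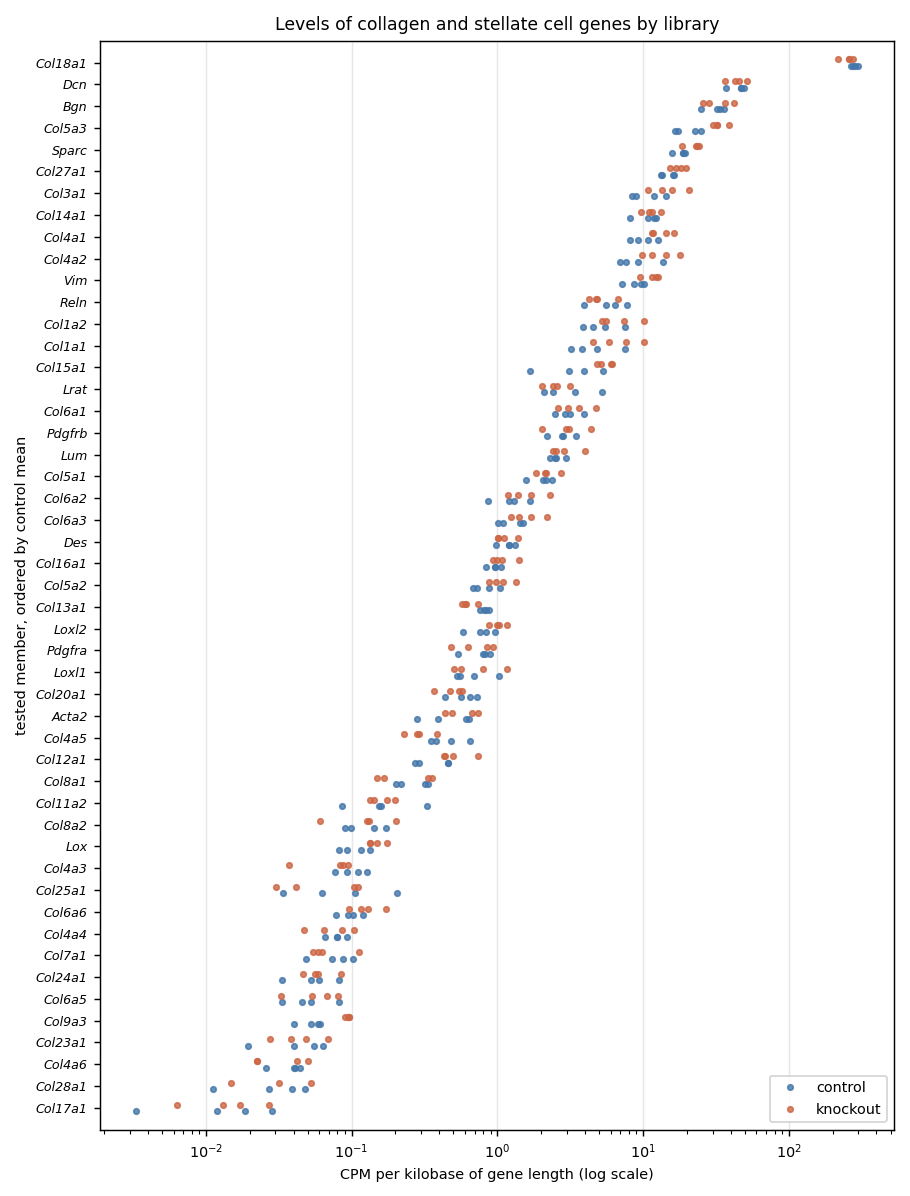
Level of each of the 49 tested members in every library, as CPM per kilobase of deposited gene length on a log axis, ordered from bottom to top by the control mean. Blue points are control and orange points knockout libraries, and Col18a1 stands at the top at 283 in control and 253 in knockout libraries on average.

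Ranked by control level per kilobase, the order of members was Col18a1, Dcn, Bgn, Col5a3, Sparc, Col27a1, Col3a1 and Col14a1. Col18a1, which encodes type XVIII collagen of basement membranes and the precursor of the endostatin fragment, stood at 283 ± 13.7 CPM per kilobase, which placed it at rank 184 among the 14861 tested genes. Decorin (Dcn) followed at 45.0 ± 5.52 and biglycan (Bgn) at 31.8 ± 4.79, both small proteoglycans that bind collagen fibrils. Col5a3, Sparc at 18.3 ± 1.6 and Col27a1 at 14.8 ± 1.67 lay next to one another. Below them Col3a1, Col14a1, Col4a1 and Col4a2 stood at 10.9 ± 2.81, 10.8 ± 1.88, 10.3 ± 1.99 and 9.4 ± 3.02, so these 4 neighbours differed by less than their spread. The type I chains Col1a2 and Col1a1 stood at rank 13 and 14 of the 58, at 5.37 ± 1.58 and 4.83 ± 1.89. The order was led by Col18a1, Dcn and then Col5a3 in the knockout libraries, where Col5a3 had 33.5 ± 3.76 and Bgn 33.2 ± 7.41 CPM per kilobase.

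Col18a1 held most of the collagen counts and did not pass the test. Its level was 1663, 1560.2, 1740.2 and 1596 CPM in control libraries 1 to 4 and 1602, 1268, 1497 and 1502 CPM in knockout libraries 1 to 4. Knockout library 2 was the lowest of all 8, and the groups overlapped through knockout library 1. The log2 fold change was −0.16 (SE 0.09, 95% interval −0.36 to 0.04, adjusted p = 0.331 by edgeR). Col18a1 overlaps Slc19a1, which is transcribed the other way, and reads of the 2 genes cannot be told apart unless the counting used strand, which is not stated. Col18a1 made up 67.5% to 75.3% of all collagen counts in control libraries and 59.7% to 66.5% in knockout libraries, and these ranges do not overlap. The other multiplexin collagen gene, Col15a1, had 21.0, 16.5, 8.85 and 28.2 CPM in control and 32.4, 25.6, 27.2 and 32.2 CPM in knockout libraries (0.65, SE 0.30, adjusted p = 0.257, and 0.43 without control replicate 3). Control library 3 was its lowest and control library 4 lay inside the knockout range.

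Summed over all 44 collagen genes the level was 2295 ± 57.6 CPM in control and 2342 ± 145 CPM in knockout libraries. As a percent of all counts, without TMM scaling, the order was the other way, with 0.239 ± 0.00508 in control and 0.225 ± 0.0157 in knockout libraries. Without Col18a1 the sum was 572 to 769 CPM over the control and 807 to 927 CPM over the knockout libraries, with means of 655 ± 85.8 and 875 ± 53.8 CPM. Col5a3 supplied 79.4 CPM of the difference of 219 CPM between these means, or 36.2%. Col4a2 supplied 26.1, Col3a1 23.8, Col4a1 21.3, Col27a1 20.4 and Col1a1 13 CPM. These sums are given as a description, without a test.

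**Figure D2:**
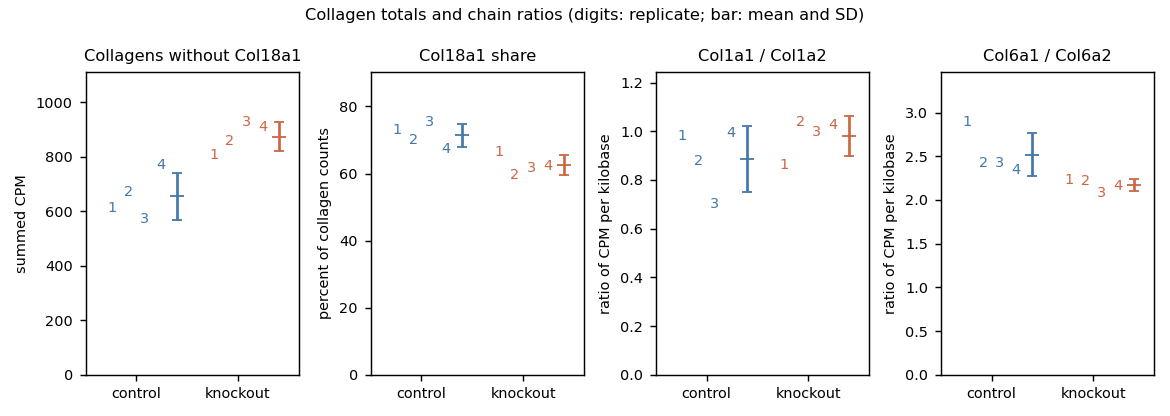
Summed CPM of the collagen genes other than Col18a1, the percent of collagen counts held by Col18a1, and the Col1a1 to Col1a2 and Col6a1 to Col6a2 ratios of CPM per kilobase, in each library. Digits are replicate numbers and bars give the mean and SD of 4 libraries. The sum runs from 572 to 769 in control and from 807 to 927 in knockout libraries after TMM scaling, without which these ranges overlap. The Col6a1 to Col6a2 ratio runs from 2.34 to 2.89 in control and from 2.08 to 2.23 in knockout libraries.

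The fibrillar collagens as a group had log2 fold changes above 0 for 8 of 9 tested members, with a median of 0.36, and Col5a3 was the only 1 of the 9 to pass the test. Without knockout replicate 3 the median was 0.24 with 7 of 9 above 0. Over all tested genes 7193 of 14861 were above 0 and the median was −0.01. Col1a1, which forms the type I trimer with Col1a2, had 22.5, 28.8, 18.9 and 44.3 CPM in control libraries and 26.9, 34.5, 60.1 and 45.2 CPM in knockout libraries. The groups overlapped, with knockout library 3 highest and control library 4 above 2 of the knockout libraries. Its log2 fold change was 0.54 (SE 0.32, 95% interval −0.20 to 1.28, adjusted p = 0.374), and leaving out 1 library moved it to 0.31 without knockout replicate 3 and to 0.83 without control replicate 4. Col3a1, the type III chain of pliable fibrils, had 46.5, 66.4, 49.5 and 80.1 CPM in control and 60.4, 75.6, 114 and 87.5 CPM in knockout libraries. It too was highest in knockout library 3 (0.48, SE 0.23, adjusted p = 0.268, and 0.30 without that library). Col27a1, a fibrillar chain known from cartilage, had 123, 125, 104 and 101 CPM in control and 139, 151, 128 and 116 CPM in knockout libraries. Only knockout library 4 reached into its control range (0.24, SE 0.10, adjusted p = 0.221). Col1a2 (0.41), Col24a1 (0.11) and Col11a2 (−0.16) did not pass either. Col2a1 and Col11a1 were at 0 counts in all 8 libraries, which allows a level of up to 0.0215 to 0.0277 CPM, depending on the library. This floor of 3 counts takes each count as independent, while 67.4% to 70.8% of counts from 1 to 20 were even. Without that independence the floor is too low.

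Of the 6 type IV collagen genes 0 passed the edgeR test, DESeq2 or limma, and 2 had an unadjusted p under 0.05. The genes lie in 3 head-to-head pairs, Col4a1 with Col4a2 on chromosome 8, Col4a3 with Col4a4 on chromosome 1 and Col4a5 with Col4a6 on the X chromosome. Col4a1 and Col4a2, which make the common basement membrane trimer, are the pair whose start regions are printed above. Col4a1 had 54.4, 72.2, 61.3 and 84.6 CPM in control and 94.7, 78.1, 77.0 and 108 CPM in knockout libraries (0.39, SE 0.15, adjusted p = 0.176). Col4a2 had 49.6, 60.1, 44.7 and 88.2 CPM in control and 93.3, 74.0, 63.7 and 116 CPM in knockout libraries (0.52, SE 0.25, adjusted p = 0.273). In both genes libraries 4 were the highest of their groups, and with the replicate number as a block Col4a2 passed (adjusted p = 0.0242) while Col4a1 did not (adjusted p = 0.0672).

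Col4a5, whose chain is known for its loss in X-linked Alport syndrome, had the lowest log2 fold change of the tested members. Its level was 2.46, 2.27, 4.23 and 3.13 CPM in control and 1.48, 1.88, 2.50 and 1.82 CPM in knockout libraries. Knockout library 3 lay above the lowest control libraries, so the groups overlapped. The log2 fold change was −0.66 (SE 0.23, 95% interval −1.18 to −0.14), with adjusted p = 0.138 without a block and 0.0424 with the replicate number as a block. Its neighbour Col4a6 had 0.251 ± 0.0537 and 0.228 ± 0.0928 CPM (−0.14, SE 0.34). Col4a3 (−0.44, SE 0.30) and Col4a4 (−0.07, SE 0.27) stood below 1 CPM on average in both groups and did not pass.

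**Figure D3:**
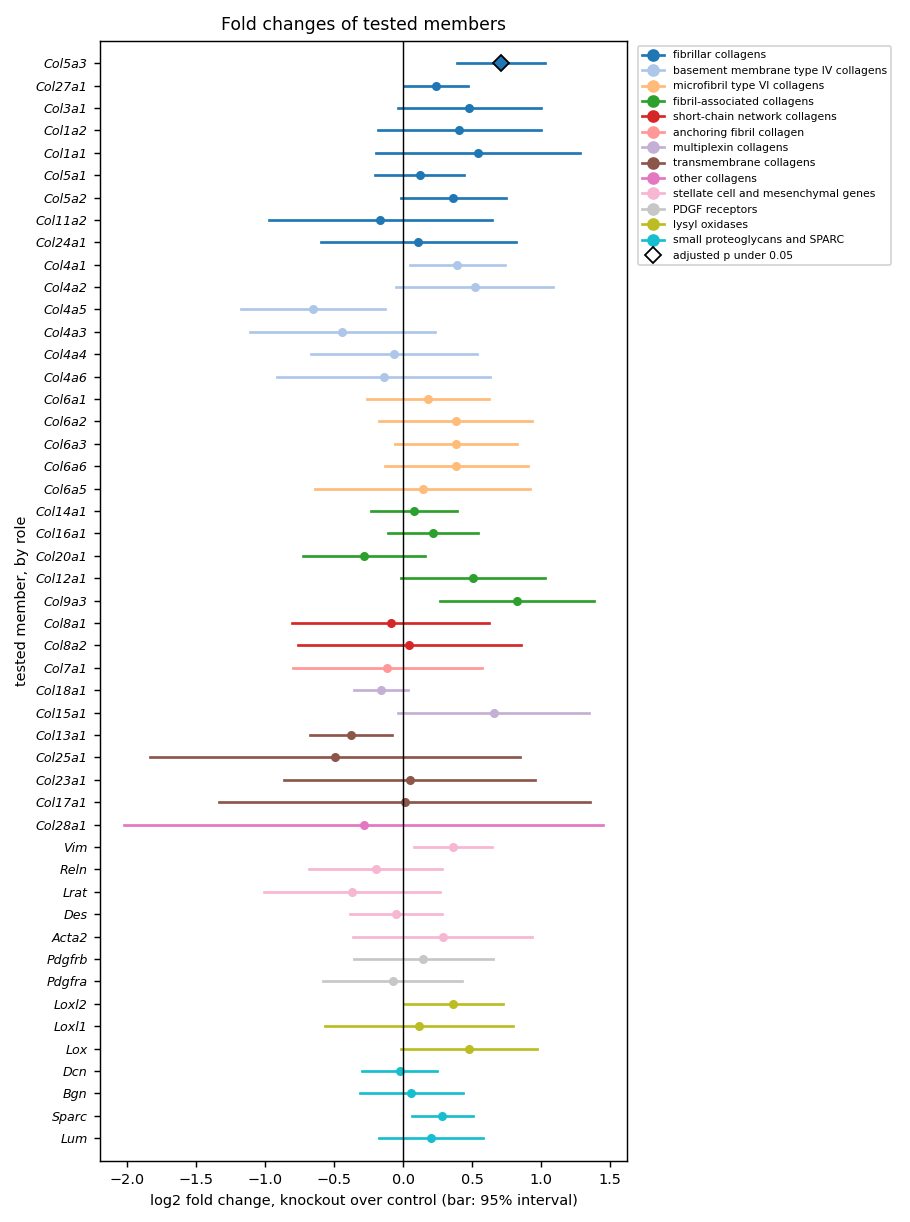
Log2 fold change of knockout over control for the 49 tested members, grouped and coloured by role, with 95% intervals as bars. The diamond marks the 1 member with adjusted p under 0.05, Col5a3 at 0.71, and the values run from −0.66 for Col4a5 to 0.83 for Col9a3.

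Type VI collagen, which forms beaded microfibrils around cells, had log2 fold changes above 0 for 5 of 5 tested chains with a median of 0.38, and none passed. Without knockout replicate 3 the median was 0.17 with 3 of 5 above 0. Col6a1 had 9.83, 12.6, 11.5 and 15.7 CPM in control and 10.5, 12.2, 19.0 and 14.6 CPM in knockout libraries (0.18, SE 0.20). Col6a3 had 13.6 ± 2.69 and 17.8 ± 4.62 CPM (0.38, SE 0.20, adjusted p = 0.299), and 0.21 without knockout replicate 3. Col6a2 (0.38), Col6a6 (0.39) and Col6a5 (0.14) also did not pass. Col6a4 was not tested, where its highest count was 3 among control libraries and 4 among knockout libraries.

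Ratios between chains were compared within libraries, per kilobase, for 4 gene pairs. The ratio of Col1a1 to Col1a2, chains that join in 2 to 1 proportion in the type I protein, was 0.888 ± 0.135 in control and 0.980 ± 0.0818 in knockout libraries (exact two-sided permutation test, p = 0.257, or 0.495 adjusted over the 4 pairs). Col6a1 to Col6a2 was 2.34 to 2.89 over the control and 2.08 to 2.23 over the knockout libraries, so the groups did not overlap. Its exact permutation p was 0.0286, the smallest the 70 assignments allow, and 0.114 after Benjamini-Hochberg adjustment. Col4a1 to Col4a2 was 1.13 ± 0.170 and 1.02 ± 0.114, and Col3a1 to Col1a1 was 2.34 ± 0.369 and 2.20 ± 0.188, with exact permutation p = 0.371 and p = 0.571.

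Among fibril-associated collagens, 0 of 5 tested members passed. Col14a1, which coats type I fibrils, was the most abundant and had 52.5, 77.4, 79.0 and 70.2 CPM in control and 71.4, 62.5, 86.4 and 74.5 CPM in knockout libraries (0.08, SE 0.14, 95% interval −0.23 to 0.39). Col12a1, a related chain, had 4.33 ± 1.18 and 6.15 ± 1.70 CPM (0.51, SE 0.23, adjusted p = 0.248). Col9a3 had the highest log2 fold change of all tested members, at very low counts of 18, 22, 21 and 14 in control and 35, 31, 38 and 34 in knockout libraries. Its groups did not overlap (0.83, SE 0.25, adjusted p = 0.0880), and it overlaps Tcfl5 on the opposite strand. Col16a1 (0.22) and Col20a1 (−0.28) did not pass.

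Col22a1 was left out by the filter, and it is named here after its values were seen. It had 4, 2, 1 and 2 counts in control libraries and 10, 12, 10 and 24 counts in knockout libraries. All knockout libraries were above all controls, and without the filter the adjusted p was 0.0431 by edgeR. Most of these counts are even, and halved counts were tried only with the filter, so this p-value was not checked on halved counts. Of the other untested members, Col26a1 was at 0 in every library, and Col9a1, Col9a2, Col10a1 and Col19a1 had at most 9 counts in a library.

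Transmembrane and remaining chains were scarce. Col13a1, a transmembrane collagen of cell contacts, had 2.42, 2.77, 2.64 and 2.56 CPM in control and 1.91, 1.94, 2.34 and 1.81 CPM in knockout libraries. Its groups did not overlap, with a log2 fold change of −0.38 (SE 0.13, adjusted p = 0.136 by edgeR, and 0.0485 by DESeq2's Wald test). Col5a3, Col9a3 and Col13a1 were the 3 of 49 tested members whose groups did not overlap, against 15.1% of all tested genes. Col25a1 (−0.49, SE 0.59), Col23a1 (0.05), Col17a1 (0.01), Col28a1 (−0.28) and the anchoring fibril chain gene Col7a1 (−0.12, SE 0.31) did not pass. The short-chain network genes Col8a1 (−0.09) and Col8a2 (0.05) did not pass either.

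Of the 5 genes that mark stellate and other mesenchymal cells, 0 passed by edgeR, DESeq2 or limma, and 1 had an unadjusted p under 0.05. Lrat, the enzyme that esterifies retinol for storage, had 12.9, 18.4, 11.2 and 28.1 CPM in control and 13, 10.9, 16.8 and 13.7 CPM in knockout libraries. Control library 4 was the highest, and the other libraries overlapped (−0.37, SE 0.28, 95% interval −1.01 to 0.27, adjusted p = 0.488). Without control replicate 4 the log2 fold change of Lrat was −0.050. Reln, which encodes the secreted glycoprotein reelin, had 45.8, 74.9, 90.7 and 64.9 CPM in control and 56.8, 49.7, 78.4 and 55.8 CPM in knockout libraries (−0.20, SE 0.21, adjusted p = 0.629). Des, the intermediate filament desmin, had 3.60 ± 0.437 and 3.47 ± 0.554 CPM (−0.05, SE 0.15). Acta2, the smooth muscle actin of myofibroblasts and vessel walls, had 1.57, 1.64, 0.723 and 1.0 CPM in control and 1.13, 1.90, 1.74 and 1.25 CPM in knockout libraries. Knockout libraries 2 and 3 were above every control library, and control libraries 3 and 4 below every knockout library. Control libraries 1 and 2 ran the other way and were above knockout libraries 1 and 4. The log2 fold change of Acta2 was 0.29 (SE 0.29, 95% interval −0.36 to 0.93, adjusted p = 0.610). Vim, the mesenchymal intermediate filament vimentin, had 13.2, 17.8, 15.8 and 18.8 CPM in control and 17.5, 21.2, 23.2 and 22.4 CPM in knockout libraries. Knockout library 1 alone reached into the control range (0.36, SE 0.13, adjusted p = 0.133, and 0.0392 once the replicate number was a block).

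**Figure D4:**
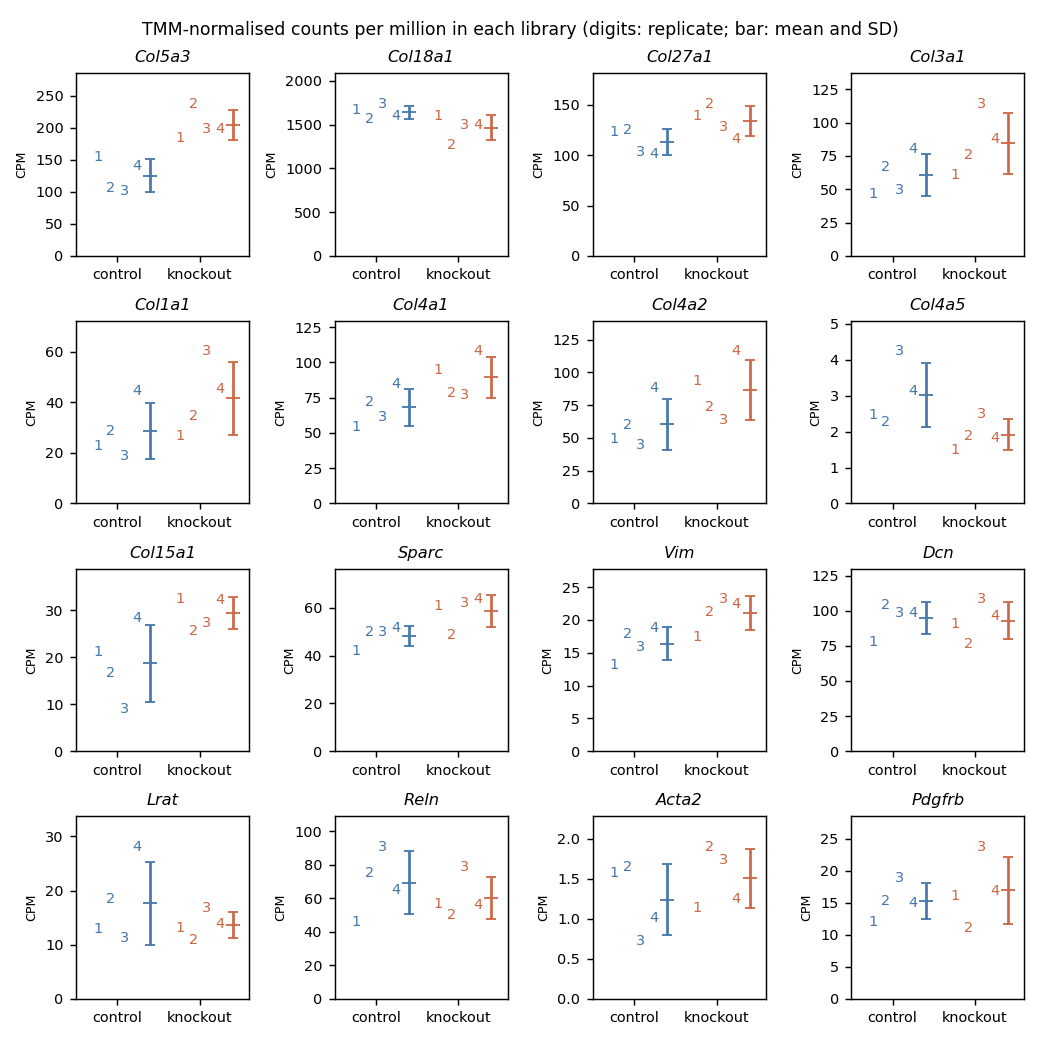
CPM of 16 members in each library from an axis starting at 0, with replicate numbers as digits and the mean and SD of 4 libraries as bars. Col5a3 is the 1 panel in which the adjusted p passed, and its knockout libraries start at 184 CPM where its control libraries end at 154 CPM.

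The receptors for platelet-derived growth factor, which drive stellate cell growth, did not pass the test. Pdgfrb had 11.9, 15.2, 18.9 and 15 CPM in control and 16.1, 11, 23.7 and 16.8 CPM in knockout libraries (0.15, SE 0.22, 95% interval −0.36 to 0.65). Pdgfra had 6.57 ± 1.34 and 6.23 ± 1.79 CPM (−0.08, SE 0.23, 95% interval −0.58 to 0.43). For both genes knockout library 2 was the lowest of all 8 libraries and knockout library 3 the highest. Of their 4 ligand genes 0 passed. The ligand gene Pdgfc had 8.70 ± 2.03 and 5.85 ± 0.450 CPM (−0.57, SE 0.16, adjusted p = 0.0723 by edgeR, 0.0473 when the replicate number was a block), and it was called by DESeq2 and under total counts alone. Pdgfd had −0.24 (adjusted p = 0.523).

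Enzymes and binding proteins of the collagen fibril were likewise not called. Lysyl oxidases cross-link collagen and elastin. Loxl2 had 3.01, 4.35, 3.94 and 5.0 CPM in control and 4.55, 5.30, 6.0 and 5.15 CPM in knockout libraries (0.36, SE 0.16, adjusted p = 0.230). Lox had 0.526 ± 0.116 and 0.731 ± 0.0973 CPM (0.48, SE 0.22, adjusted p = 0.250), and Loxl1 2.34 ± 0.752 and 2.53 ± 1.02 CPM (0.12, SE 0.30). Sparc, a matricellular glycoprotein that binds collagen, had 42.0, 49.8, 49.8 and 51.4 CPM in control and 60.7, 48.8, 61.9 and 63.7 CPM in knockout libraries. Knockout library 2 alone lay in its control range (0.28, SE 0.10, adjusted p = 0.132 by edgeR, and 0.0429 by limma with quality weights). Dcn had 77.7, 104, 98.7 and 98.7 CPM in control and 90.6, 76.6, 108 and 96.5 CPM in knockout libraries, a log2 difference of −0.03 with a 95% interval of −0.30 to 0.24. Bgn (0.06, SE 0.17) and lumican, Lum (0.20, SE 0.17), had 77.2 ± 11.6 and 80.3 ± 18.0, and 5.34 ± 0.602 and 6.13 ± 1.5 CPM.

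The order of libraries within each group showed where the values of the members were high or low. Over the 49 tested members, knockout library 3 was the highest of its group for 32 and knockout libraries 1 and 2 were the lowest for 23 and 18. Among controls, library 4 was the highest for 20 and library 1 the lowest for 26. The median log2 fold change of the tested members was 0.12, with 32 of 49 above 0, and without knockout replicate 3 it was −0.0015 with 24 above 0. Markers of portal fibroblasts summed to 15.7 to 19.6 CPM in control libraries and 17.3 to 29.0 CPM in knockout libraries, with the highest sum in knockout library 3. Mesothelial markers summed to 3.07 to 3.92 and 1.63 to 7.62 CPM and smooth muscle markers to 17.7 to 21.7 and 21.2 to 26.2 CPM, again highest in knockout library 3. None of these 22 markers was at 0 in every library, and their part in the result was not tested. For Col5a3 knockout library 3 was not the highest, and its log2 fold change was 0.72 without that library.

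**Figure D5:**
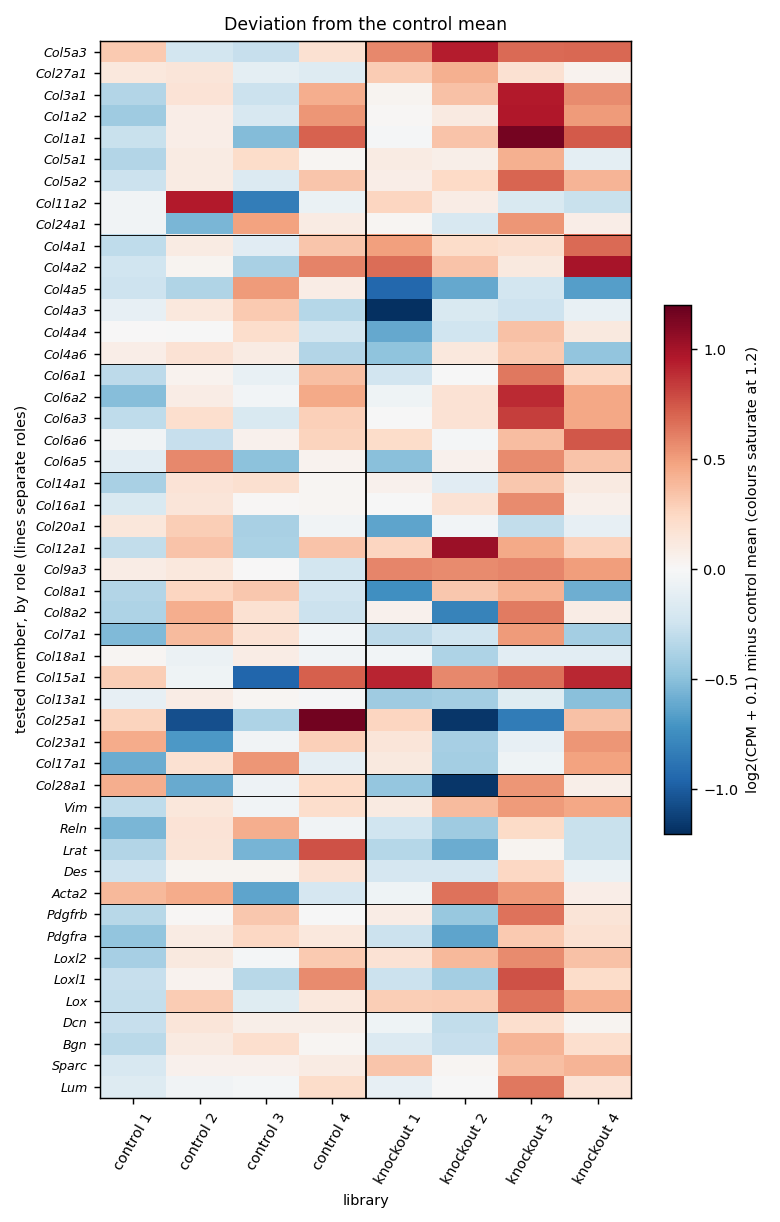
Log2(CPM + 0.1) of the 49 tested members in each library minus the control mean of the gene, with blue below and red above it. Lines separate the roles. Knockout library 3 is the highest of its group for 32 members, and Col5a3 in the top row is above the control mean in all 4 knockout libraries.

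The 95% interval of the log2 fold change lay within −1 and 1 for 37 of the 49 tested members, and its median half-width was 0.52 against 0.30 over all tested genes. An unadjusted p under 0.05 was found for 9 of the 49, against 21.5% of all tested genes. Scaling by total counts alone shifted all tested genes by a median of −0.113 on the log2 scale, and the split of called genes became 392 higher to 1338 lower in place of 521 to 280. Under it Col5a3 was the only member called, and 27 of the 49 were above 0.

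The genes that make, cut and bind collagen were described through lists of pathway genes. Of 29 tested genes of collagen biosynthesis and processing, 1 rose and 0 fell, with a median log2 fold change of 0.14. The median was 0.037 without knockout replicate 3 and 0.030 under total counts alone, where Colgalt1, a collagen galactosyltransferase gene, also fell (−0.34, adjusted p = 0.0189). The gene that rose was Plod3, a lysyl hydroxylase and glycosyltransferase of collagen, which had 29.4, 33.7, 31.5 and 33.0 CPM in control and 43.5, 42.6, 41.5 and 40.6 CPM in knockout libraries. Its groups were well apart (0.40, SE 0.06, adjusted p = 0.0111), and it kept adjusted p between 0.0165 and 0.0457 in all 8 fits that left out a library. Among 15 tested matrix proteases and their inhibitors 1 rose and 0 fell. Mmp12, the macrophage elastase, had 0.138 ± 0.0875 and 0.667 ± 0.245 CPM (2.28, SE 0.50, adjusted p = 0.0307, and 0.0565 once the replicate number was a block). Its call was lost in 5 of 8 such fits, without control replicate 3 or 4 or knockout replicate 1, 2 or 3, with adjusted p up to 0.0786. Of 8 collagen receptor genes 1 rose and 0 fell, namely Itgb1, the beta1 integrin subunit shared by collagen-binding integrins. It had 197 ± 15.6 and 246 ± 9.47 CPM (0.32, SE 0.07, adjusted p = 0.0373), with a call in 1 of 8 leave-one-out fits, that without control replicate 3, and adjusted p = 0.119 under total counts alone.

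No gene of 23 tested in the TGF-beta pathway, the main known inducer of collagen in stellate cells, passed the edgeR test. Of these, 2 had an unadjusted p under 0.05, limma called 0 and DESeq2 called 1. Tgfbr2, the type II receptor, had 44.0 ± 11 and 59.2 ± 6.19 CPM (0.43, SE 0.16, adjusted p = 0.164, and 0.0321 once the replicate number was a block). Of 24 tested non-collagen matrix glycoproteins 0 passed by any of the 3 tools and 0 had an unadjusted p under 0.05, with Matn2 at 0.33 and Tnc at 0.38, and of 15 laminins and other basement membrane genes 0 passed by edgeR, 1 by DESeq2 (Lamc3) and 1 by limma (Hspg2), with Lamc3 at −0.85 (adjusted p = 0.122, and 0.0238 when blocked) and Nid1 at 0.31. The median log2 fold change was 0.09 for the TGF-beta pathway, 0.21 for the glycoproteins and −0.01 for the laminin list. Total counts alone gave −0.03, 0.098 and −0.13 in that order, and leaving out knockout replicate 3 gave −0.03, 0.066 and −0.10.

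Markers of the cells that could carry these transcripts gave the following counts. Of 16 other stellate cell markers 0 passed, with a median of −0.03 (−0.14 under total counts alone and −0.15 without knockout replicate 3) and summed levels of 121 to 174 CPM over the control and 113 to 173 CPM over the knockout libraries. The lowest adjusted p-values in that list were those of Nes (0.24, adjusted p = 0.519) and Gfap (−0.37, adjusted p = 0.536). Neither DESeq2 nor limma called any of the 16. Of 12 endothelial markers 0 passed by edgeR and 3 had an unadjusted p under 0.05. Lyve1, a sinusoidal endothelial receptor, had 12.6 ± 3.79 and 20.7 ± 0.926 CPM (0.72, SE 0.18, adjusted p = 0.0549, and 0.0231 when blocked), and Egfl7 had 0.29. DESeq2 called both of them and limma called Lyve1. Their sums were 271 to 366 CPM over the control and 287 to 393 CPM over the knockout libraries. Of 8 Kupffer cell markers 0 passed, with sums of 158 to 218 and 123 to 349.5 CPM. Of 7 bile duct markers 1 fell, the transcription factor gene Sox9, from 11.7 ± 1.68 to 5.17 ± 1.98 CPM (−1.18, SE 0.23, adjusted p = 0.0242 by edgeR). Its call was lost without control replicate 1 or 2 or knockout replicate 2, 3 or 4, with adjusted p up to 0.0745. Of the 7 markers 3 were above 0 and 4 below. They summed to 68.4 to 78.0 CPM over the control and 49.0 to 61.0 CPM over the knockout libraries. Of the 9 tested portal fibroblast, 6 smooth muscle, 4 mesothelial and 8 hepatocyte markers 0 passed by edgeR. Log2 fold changes were above 0 for 8 of 9 portal fibroblast (median 0.36) and 6 of 6 smooth muscle markers (0.22). They were above 0 for 3 of 4 mesothelial (0.26), 10 of 12 endothelial (0.13) and 8 of 8 Kupffer cell markers (0.20). Without knockout replicate 3 these medians were 0.14, 0.20, −0.084, 0.13 and 0.31 in that order. Total counts alone gave 0.26, 0.11, 0.15, 0.019 and 0.081. DESeq2 called 3 hepatocyte markers higher and 1 lower, and limma called 2 higher. By edgeR 5 of the 8 hepatocyte markers were above 0 and 3 below. Albumin, Alb, stood at 57566 ± 3580 and 71672 ± 4025 CPM (0.32, adjusted p = 0.0856 by edgeR). Serpina1e was at −2.02 (adjusted p = 0.137) and Apoa1 at −0.25. Hepatocyte markers summed to 81934 to 88048.5 CPM over the control and 89194 to 101548 CPM over the knockout libraries. These sums are TMM-scaled and consist mostly of Alb. The median log2 fold change of the 8 was 0.17, and under total counts alone it was 0.057 with 4 of the 8 above 0.

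The heptamer UAUUUAU, the core of the AU-rich element that this protein family binds, was searched in the longest annotated 3′ UTR of each gene (GENCODE M21, transcript strand). It occurred in 15 of the 58 members, or 25.9%, and in 28.2% of 19992 genes of the table with a 3′ UTR of at least 20 bases. Col5a3 held it 0 times in 785 bases. Sites of the collagen gene with the highest level among those that hold one, of Col13a1 and of the retinol enzyme gene are shown with the heptamer in capitals, written with T for U.
Col3a1: aaattccagtTATTTATttccaaactt
Col13a1: gtatataggaTATTTATttttatacag
Lrat, first site: aatgtgtttaTATTTATagagcacaaa
Lrat, second site: agacagtagcTATTTATatttactttt
The median log2 fold change was 0.11 for the 11 tested members with the heptamer, of which 0 passed, and 0.13 for the 38 without it, of which 1 passed. Members with the heptamer had longer 3′ UTRs, with a median of 2653 bases against 1067 bases.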

How the data were processed

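RNA-seq of 8 mouse liver libraries was analysed. The authors deposited raw counts in 1 table, by gene symbol and with each gene's length in bases; the genome build was mm10 per the submitters' processing notes. Which aligner, counting tool, annotation and strand setting were used is not stated in the labels or the file. Columns were matched to samples by library name. Of counts from 1 to 20, 67.4% to 70.8% were even, so counts divided by 2 were tried as an alternative. Genes were filtered with filterByExpr (14861 kept), scaled by TMM and tested with edgeR 4.0.16 (robust glmQLFit and glmQLFTest, 6 residual degrees of freedom). SEs are the absolute log2 fold change over the square root of F. Levels per kilobase use the deposited lengths. DESeq2 1.42.0 and limma 3.58.1 served as alternatives. Alternatives were scaling, count filters, tools, halved counts, the block and leaving out each library. On simulated data for this comparison with 14726 tested genes, 26.9%, 65.2% and 95.2% of genes changed by log2 values of 0.5, 1 and 2 were called. Of the unchanged genes 6 were called. The changed genes were drawn from all tested genes, whose median interval half-width was 0.30 against 0.52 for the members. These shares therefore do not give the power for the members.

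Both groups carry replicate numbers 1 to 4. With group means removed, the correlation over genes within each number was 0.18, 0.44, 0.32 and 0.44. A fit with the number as a block was therefore added as an alternative. The main fit has no block, and its calls ignore any pairing. The pairing comes from these same counts and not from the labels, so the blocked p-values are not independent of it.

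The members and lists were chosen with earlier results of these data known. Named genes are Zfp36l1, called members, the 8 highest by control level per kilobase, the 14 named genes, the lowest adjusted p in each role and the 5 largest changes. Of each list of other genes they are the called ones or, where 0 passed, the 2 lowest adjusted p-values. The Kupffer cell, portal fibroblast, smooth muscle and mesothelial markers are given as counts, medians and sums only. For the TGF-beta pathway and the hepatocyte markers the rule was followed in part. Other genes named in the text were chosen after their values were seen. One gene that this rule names is not reported here. Of the 58 members 11 overlap another gene of the table, and positions are from GENCODE M21 (GRCm38). Intervals and floors cover counting error or library spread only.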

Additional observations from a re-analysis of the deposited data

Results flagged for a closer look

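Among the 28 members examined in both groups, 1 library stood far from the other 3 of its group by Dixon's criterion at 95%. Col7a1, the anchoring fibril chain gene, was at 1.03 CPM in knockout replicate 3 and at 0.503 to 0.576 CPM in the other knockout libraries, a gap of 0.862 of the range, which is over the critical value for 4 libraries. Chance alone gives such a gap in about 1 of 20 groups, and 56 groups were examined.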

How the results depend on the processing

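Over the 28 members followed under up to 16 alternatives, 411 of 443 values kept direction and side of the threshold. The number of members changed was 2 higher without the count filter (Col5a3 and Col22a1) and 2 by limma with quality weights (Col5a3 and Sparc). It was 3 higher and 1 lower with the replicate block (Col5a3, Col4a2, Vim and Col4a5), and 1 higher and 1 lower by DESeq2 (Col5a3 and Col13a1). Leaving out 1 library gave 0 to 1 higher and 0 to 0 lower. Over all tested genes DESeq2 gave 1014 higher and 724 lower, limma 830 and 604, total counts alone 1338 lower, and leaving out 1 library 169 to 583 higher and 42 to 384 lower. In the lists of other genes, 3 higher and 1 lower became 9 and 4 by DESeq2, 6 and 3 with the replicate block, 8 higher by limma, 4 lower under total counts alone, and 1 to 4 higher and 0 to 2 lower without 1 library. The block changed no other call among the members than those given.

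No reversal concerned a called member. Under total counts alone Col14a1 was −0.034 and Bgn −0.053. By limma with quality weights Col7a1 was 0.14, Reln 0.072, Des 0.031, Pdgfra 0.087 and Dcn 0.085. Leaving out 1 library gave ranges across 0 of −0.033 to 0.15 for Col14a1, −0.31 to 0.094 for Col8a1, −0.42 to 0.042 for Col7a1, −0.95 to 0.11 for Col28a1, −0.17 to 0.011 for Des, −0.063 to 0.31 for Pdgfrb, −0.23 to 0.076 for Pdgfra, −0.18 to 0.36 for Loxl1, −0.11 to 0.056 for Dcn and −0.076 to 0.16 for Bgn. The causes were not tested. Ranked by CPM without division by length, Col18a1 stayed at 1, while Col5a3 was at 2, Col27a1 at 3, Dcn at 4, Bgn at 5, Col14a1 at 6, Col3a1 at 10 and Sparc at 11.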
